A study of Homo sapiens with 6 samples.

Results

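The ATP-binding cassette (ABC) superfamily of human transporters was examined in cells labelled HepG2 after treatment with polydatin (PD) or with DMSO. Its members were the protein-coding genes whose symbol is ABC, a subfamily letter from A to G and a number. From GENCODE release 44, 43 such genes were taken, of which 37 were among the 28563 genes of the deposited table. The other 6 genes, ABCA6, ABCA9, ABCB4, ABCC12, ABCD2 and ABCG5, were not analysed here. RNA came from 3 dishes given 336 µM PD for 24 h and 3 dishes given DMSO, the solvent of PD, for the same time. All 6 dishes belonged to the same line and carried no other agent. HepG2 is an established line from a human liver tumor, and PD is a plant stilbene, the glucoside of resveratrol. The dose is that of the sample labels, and the text of the study gives a lower one. The comparison asked which transcripts PD changed.

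ABC proteins bind and hydrolyze ATP through a pair of nucleotide-binding domains and mostly use that energy to move substrates across a membrane. Subfamilies A, B, C, D and G hold membrane proteins that carry lipids, sterols, drugs, conjugated metabolites, peptides, heme precursors or fatty acyl-CoA, or that regulate ion channels. Subfamilies E and F have the ATPase domains without a membrane part and act on ribosomes. In liver, members at the hepatocyte membrane send bile salts, phospholipids, sterols and conjugates into bile or blood. Several of them, led by ABCB1, are known for pumping anticancer drugs out of tumor cells.

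The cells were checked against markers of liver and of other cell types. Of 18 hepatocyte markers, 9 were in the table, and only CPS1 and RBP4 reached 1 FPKM (fragments scaled by gene length and by library size) in any library. The others in the table, among them HNF4A, SERPINA1 and APOA1, stayed at or below 0.172 FPKM, while ALB and AFP were not among the analysed genes. CPS1, the entry enzyme of the urea cycle, was at 222 to 228 FPKM in DMSO and 106 to 111 FPKM in PD. RBP4, the plasma carrier of retinol, went the other way, with 0.323 to 0.479 FPKM in DMSO and 1.06 to 1.73 FPKM in PD. None of the 7 endothelial and 3 leukocyte markers in the table reached 1 FPKM. Of 8 epithelial and mesenchymal markers, 6 were in the table, without KRT19 and COL1A2. EPCAM, KRT8, KRT18, VIM and COL1A1 reached 1 FPKM, whereas CDH1 stayed at or below 0.145 FPKM. The hepatocyte markers that could be read were thus mostly near 0, and the cells are called by their label. Library totals, worked back from FPKM, were 16763318 to 17274927 fragments in DMSO and 16308476 to 18071632 fragments in PD. The bulk values cannot tell fewer cells of a kind from less RNA per cell.

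Of the 37 members, 23 had a mean of at least 0.5 FPKM and were tested with limma on log2(FPKM + 1), and the other 14 never exceeded 0.285 FPKM. After PD, 11 of the 23 were higher, 4 were lower and 8 were not called, a call being an adjusted p not above 0.05. This made 65.2% of the tested members, beside 58.1% of all 14400 genes tested (31.9% higher and 26.2% lower). FPKM were also rescaled by median-of-ratios factors and by the upper quartile. With the latter, the calls over all genes turned from 4588 higher and 3780 lower to 3798 higher and 4675 lower, while the members stood at 11 higher and 6 lower. The groups did not overlap for 18 of the 23 members, against 65.4% of all genes tested. The median log2 fold change was 0.19 for the members and 0.01 for all genes tested. No member reached a change of 2-fold in limma on log2(FPKM + 1), with or without adjustment of p, where 3.61% of all genes did. That scale shrinks changes of low genes. With voom on fragments, which tested 28 members, 3 were higher and 2 lower by 2-fold or more. Among all genes, 6.72% were higher and 4.80% lower by 2-fold or more, and 62.7% were called. Among the members so counted, ABCG4 (higher) met the minimum of fragments for voom only through PD. ABCB6 (lower) met it only through DMSO. The other members so counted were ABCB1 and ABCB9, which were higher, and ABCA13, which was lower.

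**Figure D1:**
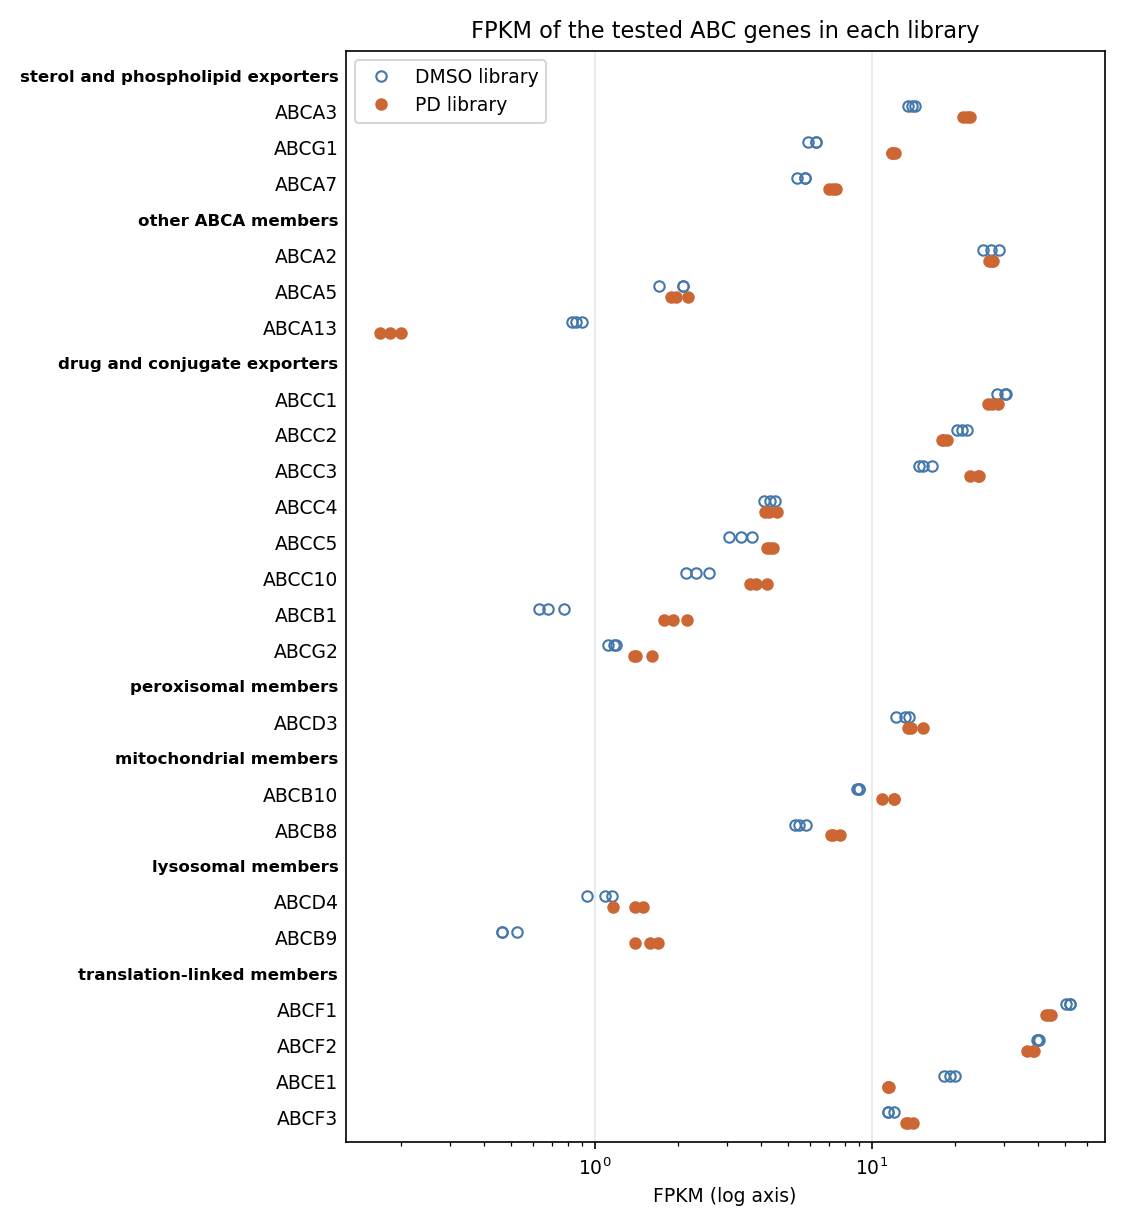
FPKM of the 23 tested ABC genes in each library (log axis), grouped by role. Open circles are the 3 DMSO libraries and filled circles the 3 PD libraries. The members span 0.168 FPKM for ABCA13 in a PD library to 52.2 FPKM for ABCF1 in a DMSO library, and the groups separate most clearly for ABCG1, ABCB1, ABCB9 and ABCA13.

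The summed level of these members was 284 to 288 FPKM in the DMSO libraries and 296 to 301 FPKM in the PD libraries, a ratio of means of 1.05. The makeup of that sum shifted between roles. Sterol and phospholipid exporters made 8.97% to 9.15% of it in DMSO libraries and 13.7% to 14.1% in PD libraries. Translation-linked members, which held the largest share, made 42.4% to 43.2% in DMSO and 35.1% to 35.9% in PD. Drug and conjugate exporters made 27.3% to 27.6% in DMSO and a higher share, of up to 28.8%, in each PD library. Shares in DMSO and PD did not overlap for these 3 roles, nor for mitochondrial, lysosomal and the other subfamily A members. They overlapped for peroxisomal members. The summed FPKM of the other subfamily A members did overlap, at 28.4 to 31.6 in DMSO and 29.1 to 29.7 in PD. The genes of highest mean level over the 6 libraries, on this per-length scale, were ABCF1 (47.6 FPKM), ABCF2 (38.9 FPKM), ABCC1 (28.6 FPKM) and ABCA2 (27.1 FPKM). Over the 6 libraries, the values of ABCC1 overlapped those of ABCA2. The values of ABCC2 likewise overlapped those of its neighbour in rank, ABCC3. Between PD and DMSO, the groups of ABCC2 and of ABCC3 did not overlap.

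Sterol and phospholipid exporters move lipids out of the cell, into bile or into secretory granules. Of 9 members of this role, 3 were tested and all 3 rose after PD, where 31.9% of all genes tested were called higher. The median log2 fold change of these 3 members was 0.62. Roles were assigned with earlier results of these data known. The other subfamily A members, with the lipid transporters ABCA2 and ABCA13, were listed apart. Of 3 of them tested, 1 was lower and none was higher. ABCG1, which sends cholesterol to high-density lipoprotein and is a textbook target of the liver X receptors (LXR), had 6.28, 5.89 and 6.28 FPKM in the DMSO libraries and 11.9, 11.9 and 12.2 FPKM in the PD libraries. Every PD library lay far above every DMSO library. The means were 6.15 ± 0.228 and 12.0 ± 0.203 FPKM (SD, n = 3), a ratio of 1.95, and the log2 fold change was 0.86 with an SE of 0.04 (limma adjusted p = 7.4e-06), the largest of the family on this scale. ABCA3, a phospholipid transporter of lamellar bodies, had 13.6, 14.0 and 14.3 FPKM in DMSO and 21.4, 22.1 and 22.6 FPKM in PD. The groups again stood apart, with a ratio of means of 1.58 and a log2 fold change of 0.62 (SE 0.04, limma adjusted p = 1.7e-05). ABCA7, a phospholipid transporter linked to phagocytosis, rose from a mean of 5.63 to 7.24 FPKM (log2 fold change 0.31, limma adjusted p = 0.0011).

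The other members of this role were at low levels. ABCA1, which loads cholesterol and phospholipid onto apolipoprotein A-I and shares LXR control with ABCG1, was at 0.105 to 0.175 FPKM in DMSO and 0.140 to 0.176 FPKM in PD, which is 20 to 36 fragments per library. With voom its log2 fold change was 0.12 (95% interval -0.44 to 0.67, adjusted p = 0.72), so a change of the size seen for ABCG1 lies outside the interval. ABCG4, a sterol transporter close to ABCG1 and best known from brain, had 1 fragment in each DMSO library and 13, 14 and 12 fragments in the PD libraries. Adjusted for library totals, its ratio was 12.8 with an exact 95% interval of 4.07 to 64.8, which covers counting error only, and its level in PD was still only 0.120 FPKM. ABCA12, a ceramide carrier of skin, and ABCG8, the partner of ABCG5 in biliary sterol export, stayed at or below 0.114 FPKM and were not tested. ABCA12 had 9, 18 and 7 fragments in DMSO and 2, 5 and 6 in PD, without overlap.

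The 250 bases before the start of the MANE Select transcript were read for all 43 members from hg38 (MANE Select is the reference transcript chosen for each gene). A stretch of the promoter of ABCA3, the most abundant exporter of this role, is shown 5′ to 3′ in the direction of transcription, up to the first base that an exon of another transcript of the gene covers. Capitals mark matches on either strand. They are the GC box with the letters GGGCGG, the CCAAT box with the letters its name spells, and the core of an antioxidant response element with the letters TGACNNNGC. An E-box, whose letters are CACGTG, was also searched for. The cAMP response element, TGACGTCA, was added after the promoters had been read. Matches of different motifs may overlap.
ABCA3 (hg38, chr16:2340747-2340978, minus strand): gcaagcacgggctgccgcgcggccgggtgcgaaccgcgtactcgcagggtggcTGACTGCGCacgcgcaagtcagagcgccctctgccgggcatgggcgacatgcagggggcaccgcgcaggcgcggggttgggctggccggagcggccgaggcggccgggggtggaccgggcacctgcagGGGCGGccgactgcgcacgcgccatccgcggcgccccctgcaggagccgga
The whole window of ABCA3 held 1 GC box and 1 antioxidant core. A GC box was present before 16 of the 23 tested members and before 59.9% of all 19060 MANE promoters. The antioxidant core was present before 5 tested members and 11.4% of all promoters, the CCAAT box before 5 and 34.4%, and the E-box before 2 and 7.88%. The TATA box (TATAAA) was found before 3 tested members and 9.19% of all promoters, and an AP-1 site (TGANTCA) before 1, ABCB1, and 4.74%. The median GC content of the window was 70.4% for tested members and 63.2% for all genes. The values over all promoters take in genes too low to be tested, so the 2 sets differ in level. These matches are letters in a window, with no binding measured.

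The study combined PD with doxorubicin and cisplatin in other experiments, and the drug and conjugate exporters include the pumps best known for such drugs. The libraries themselves had received neither drug. Of 9 members of this role, 8 were tested, and 4 were higher, 1 lower and 3 not called, with a median log2 fold change of 0.23. Calls were thus made for 62.5% of them, near the 58.1% of all genes tested. ABCB1 (P-glycoprotein), an efflux pump for doxorubicin and many other hydrophobic drugs, had 0.628, 0.678 and 0.775 FPKM in DMSO and 2.16, 1.78 and 1.92 FPKM in PD. The groups did not overlap, though both were low within the family. In fragments these were 63, 66 and 77 against 227, 181 and 182, a ratio of mean FPKM of 2.82. The log2 fold change was 0.80 (SE 0.09, limma adjusted p = 0.00019) on FPKM + 1 and 1.49 (95% interval 1.18 to 1.80, adjusted p = 1.6e-08) with voom.

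ABCC3 (MRP3), which exports glucuronides and bile salts across the basolateral membrane, was the drug exporter with the largest gain in FPKM. It had 16.6, 14.8 and 15.4 FPKM in DMSO and 22.6, 24.5 and 24.3 FPKM in PD (ratio of means 1.53). Its log2 fold change was 0.58 with an SE of 0.05 (limma adjusted p = 8.8e-05). ABCC2 (MRP2), its counterpart at the canalicular membrane and a carrier of glutathione and glucuronide conjugates, went the other way. It fell from a mean of 21.3 ± 0.904 to 18.3 ± 0.481 FPKM (log2 fold change -0.21, limma adjusted p = 0.0040), so that ABCC2 lay above ABCC3 in each DMSO library and below it in each PD library. That order of the 2 genes was noticed after their values had been seen.

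ABCC10 (MRP7), a carrier of taxanes and conjugates, had 2.33, 2.13 and 2.60 FPKM in DMSO and 3.64, 3.84 and 4.19 FPKM in PD. The groups stood apart, with a log2 fold change of 0.55 (SE 0.08, limma adjusted p = 0.00065). Its exons overlap those of DLK2 on the opposite strand, which went from 2.13 ± 0.167 to 5.49 ± 0.492 FPKM. Whether the counting used strand is not stated in the sources used here, so reads of the 2 genes cannot be told apart where they overlap, and the rise of ABCC10 is uncertain. ABCC5 (MRP5), an exporter of cyclic nucleotides, rose from 3.38 to 4.30 FPKM (log2 fold change 0.28, limma adjusted p = 0.0096).

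ABCC1 (MRP1), a broad exporter of glutathione conjugates and anthracyclines, was the most abundant member of this role and was not called. It had 30.3, 28.4 and 30.6 FPKM in DMSO and 26.3, 28.6 and 27.2 FPKM in PD, and the groups overlapped. Its log2 fold change was -0.12 (95% interval -0.22 to -0.01, limma adjusted p = 0.056), and it was called lower with voom (adjusted p = 0.021), with both other scalings, and without DMSO replicate 2 (adjusted p = 0.033) or PD replicate 2 (adjusted p = 0.041). ABCG2 (BCRP), a pump for topoisomerase inhibitors and urate, was at 1.17 and 1.47 FPKM (log2 fold change 0.19, limma adjusted p = 0.067) and was called higher with voom (log2 fold change 0.33, adjusted p = 0.047). ABCC4 (MRP4), which exports cyclic nucleotides and prostaglandins, was at 4.29 and 4.31 FPKM. Its log2 fold change was 0.01 with a 95% interval of -0.13 to 0.14, and the sign turned with the scaling. ABCC11 (MRP8) was at or below 0.0879 FPKM.

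A 30-base stretch of the ABCB1 promoter is shown for the CCAAT box, in capitals as its reverse complement, that the window held nearest to the transcript start. Most of the remaining window lies in exons of other ABCB1 transcripts.
ABCB1 (hg38, chr7:87600946-87600975, minus strand): gtggtgaggctgATTGGctgggcaggaaca

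**Figure D2:**
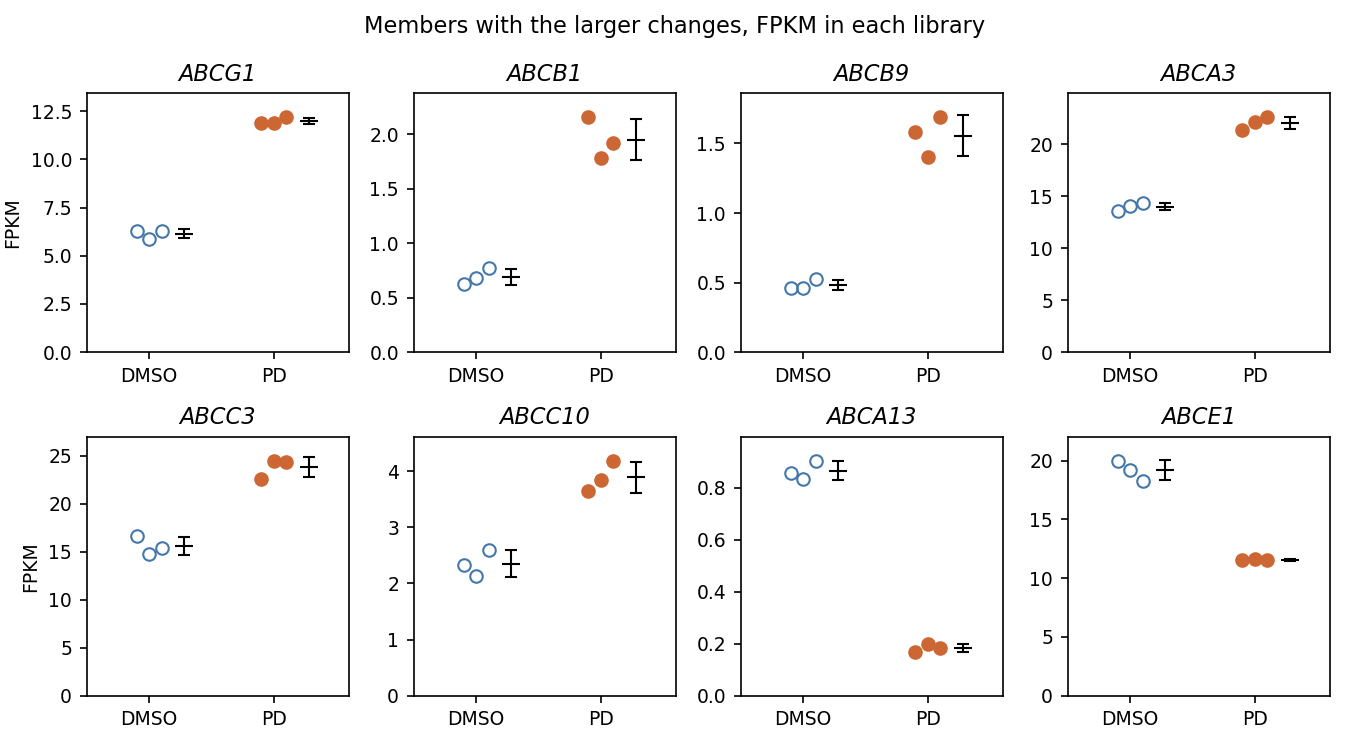
FPKM in each library of the 8 members called with an absolute log2 fold change of at least 0.5, each with its own axis from 0. Open circles are DMSO and filled circles PD, and the bars give the mean and SD of 3 libraries. All 3 PD libraries lie above all DMSO libraries for ABCG1, ABCB1, ABCB9, ABCA3, ABCC3 and ABCC10 and below them for ABCA13 and ABCE1, from 0.864 to 0.184 FPKM in ABCA13.

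With an absolute log2 fold change of at least 0.5 as a further condition, 8 members were called, 6 higher and 2 lower, where 21.9% of all genes tested met both. ABCA13 was the tested member that fell most in proportion. It encodes a very large lipid transporter and had 0.856, 0.832 and 0.904 FPKM in DMSO and 0.168, 0.200 and 0.183 FPKM in PD, or 266 to 295 against 57 to 67 fragments. The groups were far apart for so low a gene, with a ratio of mean FPKM of 0.21. Its log2 fold change was -0.65 (SE 0.09, limma adjusted p = 0.00075) on FPKM + 1 and -2.23 (95% interval -2.53 to -1.93) with voom. Its mean of 0.524 FPKM was just over the minimum for testing, and it was no longer tested when any DMSO library was left out. ABCA13 and ABCB9 reached that minimum through the group in which they were higher, with a mean under it in the other group.

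Of the other subfamily A members, ABCA2 and ABCA5 were tested and not called. ABCA2, an endosomal and lysosomal sterol and lipid transporter, had 26.9, 25.3 and 28.8 FPKM in DMSO and 26.6, 27.3 and 27.5 FPKM in PD, with the PD values inside the DMSO range. Its log2 fold change was 0.01 (95% interval -0.11 to 0.12, limma adjusted p = 0.90), with a sign that turned under both other scalings. ABCA5, another endolysosomal member, was at 1.96 and 2.00 FPKM with a log2 fold change of 0.02 (95% interval -0.17 to 0.22, limma adjusted p = 0.82), negative under upper quartile scaling. It shares exon bases with ABCA10. ABCA4, the retinoid transporter of photoreceptors, was at 0.135 to 0.205 FPKM in DMSO and 0.0974 to 0.128 FPKM in PD, with a voom log2 fold change of -0.47 (95% interval -1.10 to 0.17, adjusted p = 0.19). ABCA8 and ABCA10 were at or below 0.0344 FPKM and were not tested, and the values of ABCA10 were lower in each PD library than in any DMSO library.

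Peroxisomal members carry very long-chain and branched fatty acyl-CoA into peroxisomes. ABCD3 (PMP70), an abundant protein of the peroxisomal membrane, had 13.7, 13.2 and 12.3 FPKM in DMSO and 15.4, 13.5 and 13.9 FPKM in PD. The groups overlapped, and the member was not called by limma or by voom. Its means were 13.1 ± 0.720 and 14.3 ± 1.02 FPKM, with a log2 fold change of 0.12 (95% interval -0.03 to 0.26, limma adjusted p = 0.14). The fold change was 0.04 with upper quartile scaling and 0.06 without PD replicate 1, the library of its highest value.

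Mitochondrial members of subfamily B serve iron-sulfur cluster and heme metabolism. ABCB10, an inner membrane transporter linked to heme synthesis, had 9.03, 8.98 and 8.90 FPKM in DMSO and 12.1, 10.9 and 12.1 FPKM in PD. It was higher in every PD library (log2 fold change 0.35, SE 0.05, limma adjusted p = 0.00075). ABCB8, described as a part of a mitochondrial potassium channel complex, rose from 5.52 to 7.37 FPKM (log2 fold change 0.36, limma adjusted p = 0.00070). ABCB8 shares exon bases with an unnamed opposite-strand gene that stayed at 0.384 and 0.151 FPKM. ABCB6, a porphyrin transporter, was at 0.169 and 0.0556 FPKM, or 15 fragments in each DMSO and 5 in each PD library, and shares exons with a readthrough gene, so its level is uncertain.

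Of the lysosomal members, ABCB9 rose and ABCD4 was not called. ABCB9 (TAPL), which pumps peptides into lysosomes, had 0.462, 0.462 and 0.523 FPKM in DMSO and 1.58, 1.40 and 1.69 FPKM in PD. Its ratio of means, 3.22, was the highest among tested members. The fragments were 103 to 119 against 325 to 379, and the log2 fold change was 0.78 (SE 0.09, limma adjusted p = 0.00022) on FPKM + 1 and 1.68 (95% interval 1.42 to 1.93) with voom. The exons of ABCB9 overlap ARL6IP4 and OGFOD2 on the opposite strand, listed at means of 0.119 and 0.0975 FPKM in DMSO and 0.105 and 0.0795 FPKM in PD. The part of these overlaps in the rise of ABCB9 was not tested. ABCD4, which with LMBRD1 brings cobalamin out of lysosomes, had 1.16, 0.939 and 1.09 FPKM in DMSO and 1.17, 1.49 and 1.40 FPKM in PD. These values touched without overlapping, with a log2 fold change of 0.19 (95% interval -0.02 to 0.40, limma adjusted p = 0.11), and voom called it higher (0.34, adjusted p = 0.022).

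Translation-linked members bind ribosomes, and of the 4, 2 were lower, 1 higher and 1 not called, with a median log2 fold change of -0.16. Calls were thus made for 75.0% of them, beside 58.1% of all genes tested. ABCE1, which splits ribosomes after termination so that subunits can be used again, had 20.0, 19.2 and 18.3 FPKM in DMSO and 11.5, 11.6 and 11.5 FPKM in PD. The PD libraries were nearly alike and all far below DMSO. The means were 19.2 ± 0.877 and 11.5 ± 0.0669 FPKM (ratio 0.60), and the log2 fold change was -0.68 (SE 0.04, limma adjusted p = 1.6e-05). Exons of ABCE1 overlap OTUD4 and ANAPC10 on the opposite strand. OTUD4 went from 13.5 ± 0.696 to 8.08 ± 0.383 FPKM and ANAPC10 from 1.65 ± 0.151 to 1.36 ± 0.213 FPKM, and their part in the fall of ABCE1 was not tested.

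ABCF1, a translation initiation factor and the most abundant member of the family, had 50.2, 52.2 and 52.1 FPKM in DMSO and 43.7, 44.6 and 42.6 FPKM in PD. It was lower in every PD library (log2 fold change -0.23, SE 0.03, limma adjusted p = 0.00067). ABCF3, the closest relative of the yeast GCN20 factor among these, went the opposite way and rose from 11.7 to 13.7 FPKM (log2 fold change 0.21, limma adjusted p = 0.0041). ABCF2 was at 40.0 and 37.8 FPKM without overlap of the groups and was not called (log2 fold change -0.08, limma adjusted p = 0.078). It was called lower with median-of-ratios scaling (adjusted p = 0.043) and with upper quartile scaling (adjusted p = 0.0097). ABCF2 shares exons with a readthrough transcript named ABCF2-H2BK1.

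A 30-base stretch of the ABCE1 promoter is shown because it held the only cAMP response element before any of the 43 members. The motif, in capitals, was present before 2.46% of all promoters, and the surrounding window lies largely in exons of ANAPC10, which starts there in the other direction.
ABCE1 (hg38, chr4:145098202-145098231, plus strand): tcgcagctcaaTGACGTCAtatctccctac

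**Figure D3:**
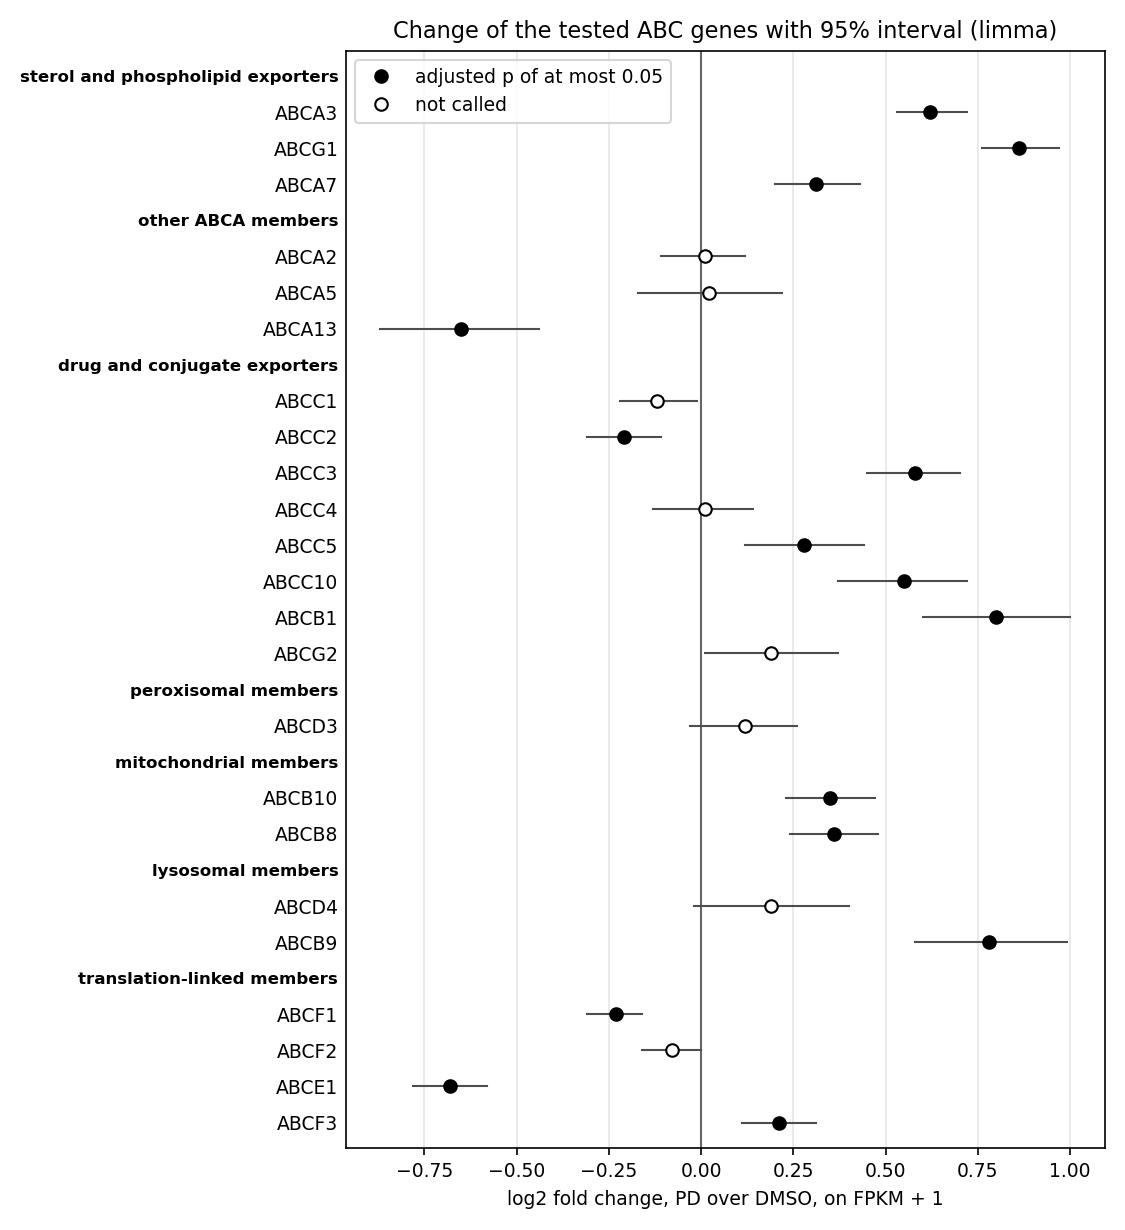
Log2 fold change of PD over DMSO on FPKM + 1 for the 23 tested members, grouped by role, with the 95% interval of limma. Filled points mark members that were called. The sterol and phospholipid exporters lie wholly to the right of 0 (0.31 to 0.86), and the other subfamily A members run from -0.65 to 0.02. The interval of ABCD3 spans 0, and the translation-linked members run from -0.68 for ABCE1 to 0.21 for ABCF3.

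The remaining members were close to the limit of detection. ABCB11, the bile salt export pump, had 1 fragment in 1 of the 6 libraries. ABCB5, a plasma membrane member known from melanocytes, likewise had 1 fragment in 1 library. ABCC8 and ABCC9, the sulfonylurea receptors that regulate KATP channels, were at or below 0.0245 FPKM, and the pore gene KCNJ11 was at or below 0.107 FPKM. ABCC6, which supports release of ATP from hepatocytes, was at 0.139 to 0.285 FPKM and has near-identical pseudogene copies, so its level is uncertain. With voom its log2 fold change was 0.29 (95% interval -0.28 to 0.86, adjusted p = 0.36). ABCC9 had 4, 4 and 3 fragments in DMSO and 0, 1 and 0 in PD, without overlap, and was not tested. For ABCB5, ABCB11 and ABCC8, changes were not detectable at this depth.

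The size of a change depended on the scale most for the low genes. ABCB1, ABCB9 and ABCA13, with means of 1.32, 1.02 and 0.524 FPKM, went from 0.80, 0.78 and -0.65 on FPKM + 1 to 1.37, 1.50 and -1.76 on FPKM + 0.1. For ABCG1 the values were 0.86 and 0.95, for ABCA3 0.62 and 0.65, for ABCC3 0.58 and 0.61, and for ABCE1 -0.68 and -0.73. Direction and call were the same on each scale for all 8. On FPKM + 0.1, ABCB1 and ABCB9 were higher and ABCA13 was lower by 2-fold or more, beside 4.85% and 3.82% of all genes.

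**Figure D4:**
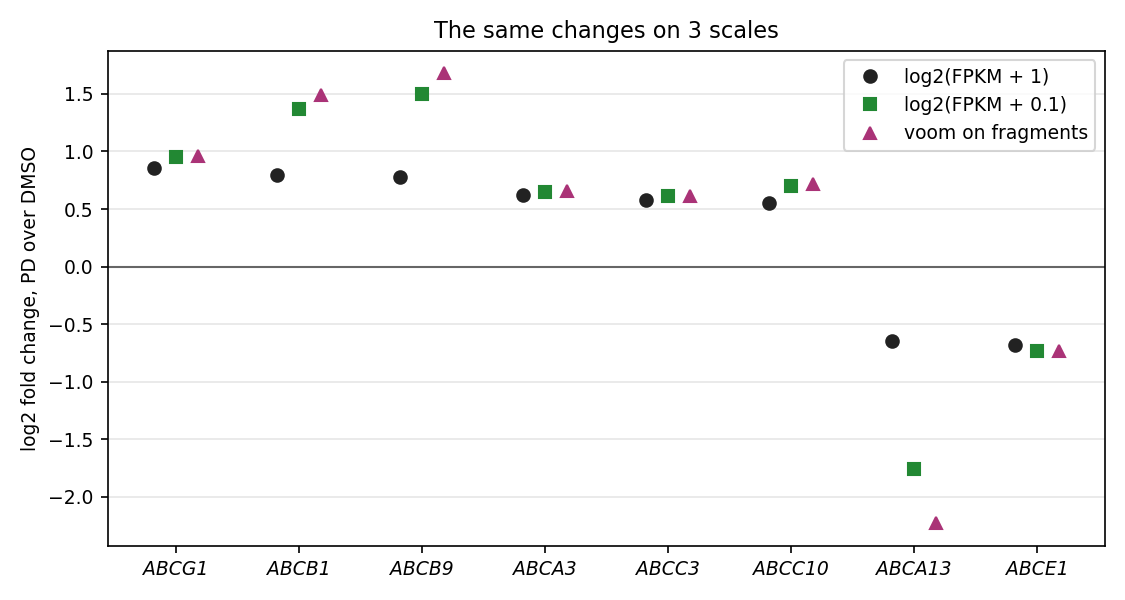
Log2 fold change of the 8 members with the larger changes, from limma on log2(FPKM + 1), limma on log2(FPKM + 0.1) and voom on fragments. The points nearly coincide for ABCG1, ABCA3, ABCC3 and ABCE1 and spread for ABCB1, ABCB9 and ABCA13, whose levels were near 1 FPKM or below.

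Genes that act with the transporters or control them were read from lists of partners and regulators. Among 8 LXR and RXR receptors and LXR targets, 5 rose and none fell (median log2 fold change 0.24), a share called of 62.5% beside 58.1% of all genes tested. Of the receptors, RXRB rose from 15.9 ± 1.50 to 20.1 ± 0.721 FPKM (log2 fold change 0.32, limma adjusted p = 0.0048), and NR1H2, NR1H3 and RXRA were not called. LPCAT3, a phospholipid-remodeling enzyme, changed most, from 3.85 ± 0.258 to 6.44 ± 0.183 FPKM (log2 fold change 0.62, limma adjusted p = 9.0e-05). RXRB shares exon bases with SLC39A7, and LPCAT3 with EMG1. Of 8 genes of sterol sensing and synthesis, 6 rose and none fell (median 0.42, 75.0% called). INSIG1, which retains the sterol sensor SCAP in the endoplasmic reticulum, led them, from 33.7 ± 1.92 to 106 ± 0.652 FPKM (log2 fold change 1.63, limma adjusted p = 1.4e-06). Of the xenobiotic receptors and partners, which control drug exporters in liver, 4 were tested, of which AHR and ARNT were not called and KEAP1 rose. NFE2L2 (NRF2), the other called gene, fell from 29.6 ± 0.820 to 15.6 ± 0.976 FPKM (log2 fold change -0.88, limma adjusted p = 1.1e-05), with exons that overlap other genes. NR1I2 (PXR) and NR1I3 (CAR) were at or below 0.311 FPKM.

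The shares called in the remaining lists, of 4 genes or fewer, were all under the 58.1% of all genes tested. TAP1 and TAP2, peptide pumps of antigen presentation that belong to the superfamily under other names, were not called by limma (log2 fold changes 0.15 and 0.14, adjusted p = 0.053 and 0.13), with 1 of the 2 at an unadjusted p under 0.05. With voom TAP1 was called higher (0.16, adjusted p = 0.013) and TAP2 was not (adjusted p = 0.052). Of 4 iron and heme partners in mitochondria, 2 rose, and ALAS1, the first enzyme of heme synthesis, changed most (log2 fold change 0.45, limma adjusted p = 0.00020). Of 4 partners in peroxisome and lysosome, 1 rose and 1 fell, led by MMACHC, a cobalamin chaperone (log2 fold change -0.26, limma adjusted p = 0.043). MMACHC shares exon bases with PRDX1. Of 4 genes of ribosome rescue and GCN2 signaling, 2 rose and none fell, led by PELO, the rescue factor that works with ABCE1 (log2 fold change 0.27, limma adjusted p = 0.025), which shares exons with ITGA1 and whose groups overlapped.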

How the data were processed

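The authors selected poly(A) RNA, made NEBNext Ultra libraries, used HISAT2 on hg38 for alignment of the read pairs and HTSeq 0.6.0 for gene counts, and deposited FPKM, the only values used. All value columns were assigned to samples. Genes were matched by Ensembl ID to GENCODE release 44, and 28161 of 28563 had a symbol. PD was compared with DMSO over 6 libraries by limma 3.58.1 in R 4.3.3 on log2(FPKM + 1), for genes whose mean reached 0.5 FPKM, with a mean-dependent prior variance, two-sided tests and Benjamini-Hochberg adjustment over 14400 genes. Fold changes on this scale understate those of low genes. Whole fragments were worked back from FPKM, gave 99.75% of the library totals, and entered voom as an alternative (at least 10 fragments in 3 libraries). Other alternatives were a pseudocount of 0.1, no filter, a minimum of 1 FPKM, 2 scalings, a replicate block and leaving out each library. The code was tested on simulated data. Replicates differed beyond sampling noise (chi-square per gene 2.303 to 3.779), and p-values measure the spread between dishes of the same line. Values in every library are given for called members whose absolute log2 fold change reached 0.5 and for the most abundant member of each role, and of each other list the gene with the largest change is named. There were 2 genes that meet the rule and are not reported here, and all counts, shares and medians of members leave them out. Members and lists were chosen with earlier results of these data known. Promoter sequence came from the hg38 genome and the GENCODE annotation.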

Additional observations from a re-analysis of the deposited data

How the results depend on the processing

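All 15 members called were called in the same direction with a pseudocount of 0.1, no filter, both scalings, voom and the replicate block, and 14 with a minimum of 1 FPKM or without any DMSO replicate, where ABCA13 was not tested. Leaving out libraries gave 11 to 11 members higher and 3 to 5 lower. At 2-fold, a pseudocount of 0.1 gave 2 members higher (ABCB1, ABCB9) and 1 lower (ABCA13), and voom gave 3 higher (also ABCG4) and 2 lower (also ABCB6), against 0 and 0. ABCG4 passed the voom filter only through PD, and ABCB6 only through DMSO. Members near 0 changed sign. ABCA2 went to -0.02 with median-of-ratios and -0.07 with upper quartile scaling, ABCC4 to -0.01 and -0.06, and ABCA5 to -0.03 with upper quartile scaling. Without single libraries they ranged from -0.04 to 0.05 (ABCA2), -0.04 to 0.06 (ABCA5) and -0.03 to 0.03 (ABCC4). Upper quartile scaling moved the medians to 0.54 for sterol and phospholipid exporters, 0.28 for mitochondrial and -0.24 for translation-linked members, the last -0.18 with median-of-ratios scaling. A pseudocount of 0.1 and voom moved them to 0.33 and 0.34 for drug exporters, 0.40 and 0.40 for mitochondrial and 0.91 and 1.01 for lysosomal members. The cause was not tested. Same-numbered libraries did not deviate together (correlations -0.027, -0.005 and 0.09), so the numbers were not taken as pairs. With the replicate block the counts stayed at 11 higher and 4 lower. Precision is limited by fragments for members under 0.5 FPKM.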
